A study of Homo sapiens with 4 samples.

Results

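The genes of the Menin, MLL and fusion partner complex were examined for peaks of H3K27ac, the acetylation of histone H3 at lysine 27 that marks active promoters and enhancers. The 9 genes were taken by name, of 19675 protein-coding genes with a known strand: MEN1, KMT2A, PSIP1, MLLT3, MLLT1, AFF1, AFF4, DOT1L and MLLT10. Each locus was the gene record on GRCh38 with 10 kb added to either side. The cells were MOLM13, an established human acute myeloid leukemia line that carries an MLL-AF9 fusion, that is, the 5′ part of KMT2A joined to the 3′ part of MLLT3. One group had been treated with 500 nM OTX015, a BET protein inhibitor, for 16 hours (the OTX015 list), and the other with 500 nM of the Menin inhibitor SNDX-50469 plus 500 nM OTX015 for 16 hours (the combination list), so the cells of both groups had received OTX015. Each list came from 1 ChIP library, and cells with no drug or with SNDX-50469 alone were not analysed here. Hence no test between treatments was possible, no value below has a replicate error, and every difference is one between 2 libraries.

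Menin, the product of MEN1, is a scaffold that binds the N terminus of MLL1, the H3K4 methyltransferase encoded by KMT2A, and together they bind LEDGF (PSIP1), which holds them on chromatin. In MLL-rearranged leukemia the fusion keeps this N terminus and gains a partner such as AF9 (MLLT3) or ENL (MLLT1), readers of acylated lysine through their YEATS domains. These partners bring the scaffolds of the super elongation complex, AF4 (AFF1) and AF5q31 (AFF4), or the H3K79 methyltransferase DOT1L with its cofactor AF10 (MLLT10), to MLL target genes. BET inhibitors such as OTX015 displace BET proteins from acetylated chromatin.

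The sequences just upstream of 3 members carry the contrast between a promoter with a peak in a single list and the promoters of the fused genes, which had none. They are RefSeq promoter sequence of GRCh38.p14, written 5′ to 3′ on the strand of the gene. For PSIP1 (chr9:15510996-15511220, minus strand) the capitals mark the 182 bases under the peak of the OTX015 list. For KMT2A (chr11:118436242-118436455, plus strand) and MLLT3 (chr9:20622500-20622749, minus strand) neither list had a peak, and the capitals mark GC boxes (GGGCGG), ETS cores (CCGGAA) and E-boxes (CACGTG) searched on both strands.
PSIP1: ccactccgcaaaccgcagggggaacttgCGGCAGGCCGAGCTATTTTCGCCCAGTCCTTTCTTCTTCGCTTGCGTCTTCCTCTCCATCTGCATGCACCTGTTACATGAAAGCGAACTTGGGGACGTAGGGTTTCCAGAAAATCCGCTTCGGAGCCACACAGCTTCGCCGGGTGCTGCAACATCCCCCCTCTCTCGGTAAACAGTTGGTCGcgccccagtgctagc
KMT2A: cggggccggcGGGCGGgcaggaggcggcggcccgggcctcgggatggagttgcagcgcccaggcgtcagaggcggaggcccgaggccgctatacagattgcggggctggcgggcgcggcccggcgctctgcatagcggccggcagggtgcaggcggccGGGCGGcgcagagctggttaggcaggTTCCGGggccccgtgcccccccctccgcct
MLLT3: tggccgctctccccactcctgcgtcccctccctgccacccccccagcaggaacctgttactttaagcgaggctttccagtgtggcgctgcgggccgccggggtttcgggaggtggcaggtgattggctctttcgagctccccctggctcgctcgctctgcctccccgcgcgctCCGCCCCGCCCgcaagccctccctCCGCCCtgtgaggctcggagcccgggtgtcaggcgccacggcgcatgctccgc
The stretch of PSIP1 ended 25 bases before the 5′ end of the record and held 16 CpG dinucleotides, 13 of them inside the peak. None of these motifs was found in it. The stretch of KMT2A held 28 CpG, 2 GC boxes and 1 ETS core, and that of MLLT3 held 24 CpG and 3 GC boxes, 2 of which overlap, and neither held an E-box. The stretches printed for PSIP1 and KMT2A are shorter than 250 bases, so their counts are not on the same length. In the full 250 bases PSIP1 held 23 CpG, KMT2A 31 with 3 GC boxes, and MLLT3 24. Of 35116 promoter stretches of 250 bases in the table, 42.6% held a GC box, 14.5% an ETS core and 6.34% an E-box, and the median number of CpG was 11. Both fused genes thus start in CpG-rich sequence, as PSIP1 does, while no peak was called at the start of the fused genes in either list. A match is a description of the letters, and a locus without a called peak may still carry the mark.

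The lists differed in depth, which bears on every comparison below. The OTX015 list held 55852 peaks over 26.0 Mb, and the combination list 86207 over 44.4 Mb. The files give no read numbers, but the lowest peaks of each list fit a constant background of 0.764 and 1.47 fragments per base, 1.92 times as many with the combination. The deeper list therefore called weaker peaks, down to 4.76 times background against 6.54 times in the OTX015 list. The part of this in the differences between lists was not tested. The myeloid label was checked against marker genes, and all 6 myeloid markers (SPI1, CEBPA, MPO, CD33, LYZ and CSF1R) had peaks at their loci, 25.4 kb under OTX015 and 35.1 kb under the combination. Among markers of other cells, 3 B cell, 1 T cell, 2 erythroid and 2 non-blood genes had a peak in either list, with summed cover of 2.72, 0.582, 0.499 and 0.130 kb under OTX015 and 5.96, 0.333, 3.35 and 0.957 kb under the combination. Most of the B cell length was at CD79A, with 2.72 and 4.99 kb, more than at the myeloid marker CD33, with 0.146 and 2.51 kb. CD3E, CD2, CD8A, HBB, ALB and KRT5 had none in either list. Over all protein-coding loci, 51.0% had a peak with OTX015 and 53.8% with the combination.

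The 9 loci held 51 peaks with OTX015 and 64 with the combination, covering 34.6 and 39.0 kb. The order of these totals was not stable, since an equal number of peaks per list gave 34.6 and 30.3 kb and flanks of 50 kb gave 59.1 and 55.9 kb. Nearly all of this lay at 4 loci. MLLT1, DOT1L, AFF1 and MLLT10 made up 94.7% of the covered length under OTX015 and 98.2% under the combination. Of this, 5.52 and 5.75 kb lay under a peak upstream of MLLT10 that held the 5′ end of its neighbour SKIDA1. The other 5 loci together had 1.85 and 0.699 kb. These 5, MEN1, KMT2A, PSIP1, MLLT3 and AFF4, include the target of the Menin inhibitor and both genes of the fusion. Each had at most 0.943 kb in either list, where the median over all protein-coding loci was 0.115 and 0.124 kb. With OTX015, KMT2A lay at percentile 80.3 of all loci, AFF4 at 73.2, PSIP1 at 57.5 and MEN1 at 55.0. With the combination, MEN1 lay at 59.8, KMT2A at 58.0 and MLLT3 at 51.8. Loci with no peak stood at 49.0 with OTX015 and 46.2 with the combination. A peak was present at 8 of 9 loci with OTX015, all but MLLT3, and at 7 of 9 with the combination, all but PSIP1 and AFF4. Over all protein-coding loci the shares were 51.0% and 53.8%, but the members' loci were longer (median 108 kb) than those of all genes (median 44.8 kb), so these counts are not a result about the members.

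**Figure D1:**
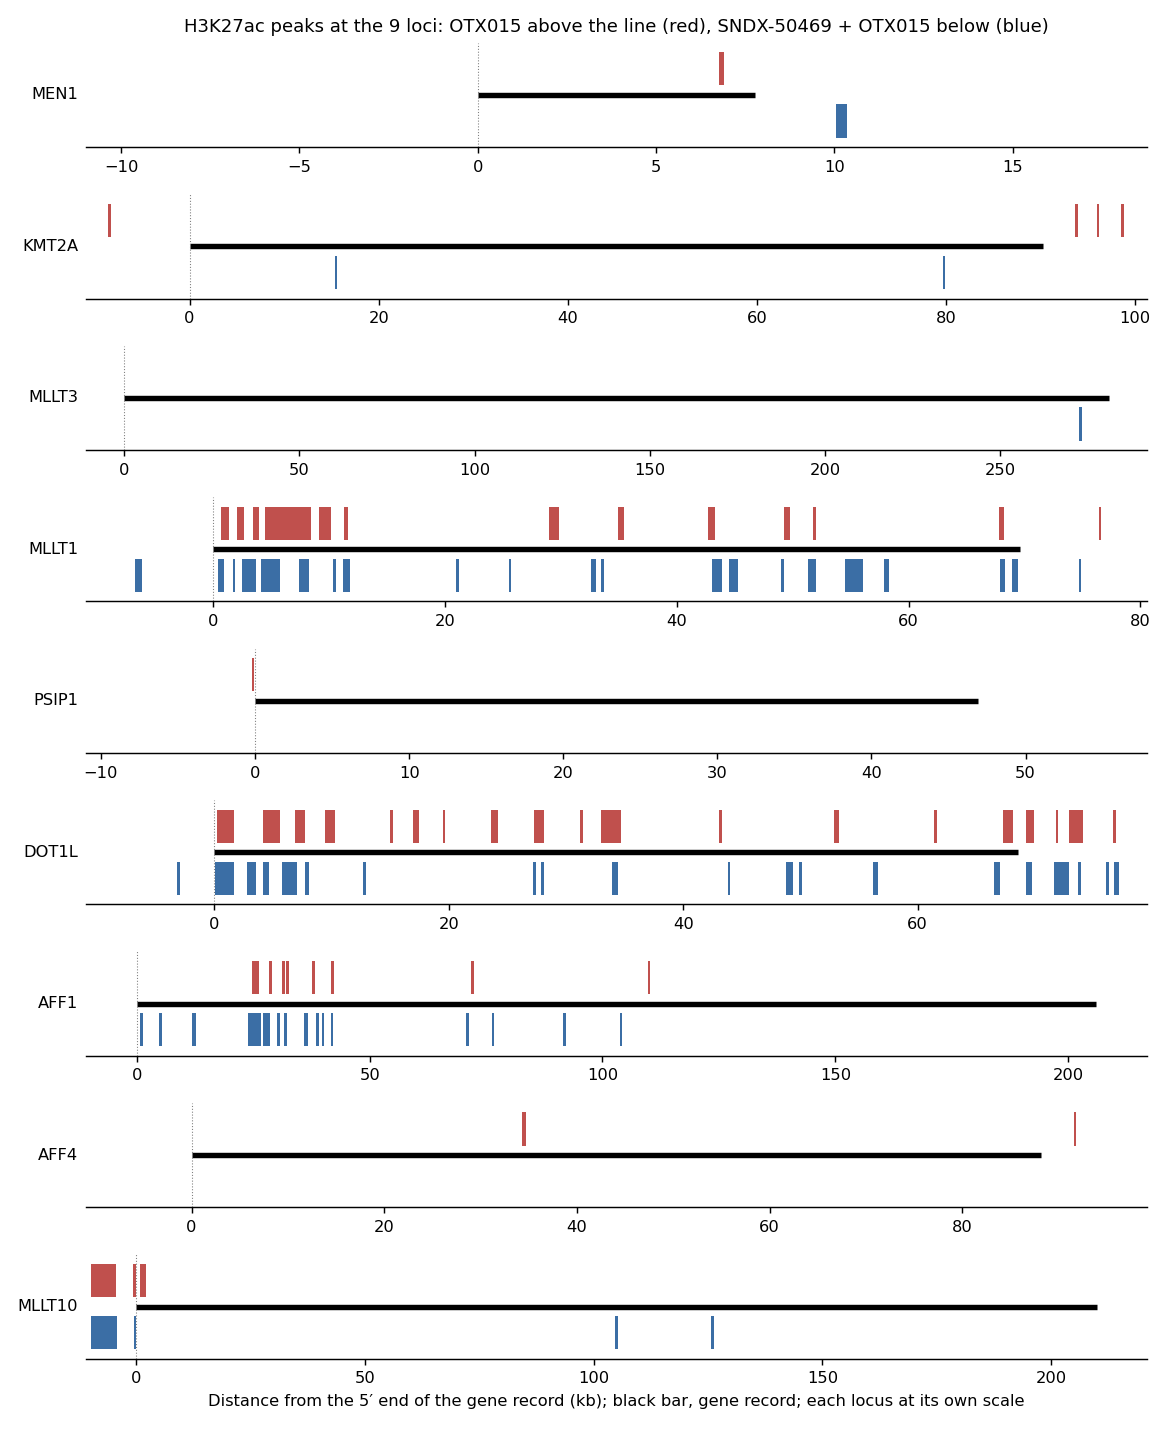
H3K27ac peaks at the 9 loci, drawn by distance in kb from the 5′ end of each gene record, each locus at its own scale and with narrow peaks widened to stay visible. Red bars above the line are peaks of the OTX015 list and blue bars below it peaks of the combination list. MLLT1, DOT1L and AFF1 carry rows of peaks, MLLT10 peaks at its 5′ side and, with the combination, 2 narrow ones inside, and the other 5 loci 4 peaks or fewer per list.

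With a difference of at least 2-fold in covered length as the call, 3 members were covered less with the combination (KMT2A, PSIP1, AFF4), 3 were covered more (MEN1, MLLT3, AFF1) and 3 were on neither side (MLLT1, DOT1L, MLLT10). Of 12957 protein-coding loci with a peak in either list, 27.6% were covered less and 41.6% more by the same call, so the members' counts lay near the background. With an equal number of peaks per list the background itself turned, to 43.9% covered less and 26.9% more, with 3 and 2 members. The median difference, combination minus OTX015, was -0.182 kb over the 9 members and 0.134 kb over all loci with cover. Of the 6 members that passed the fold, 5 rested on 0 to 4 peaks per list and on less than 1 kb, and AFF1 alone rested on a longer stretch.

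**Figure D2:**
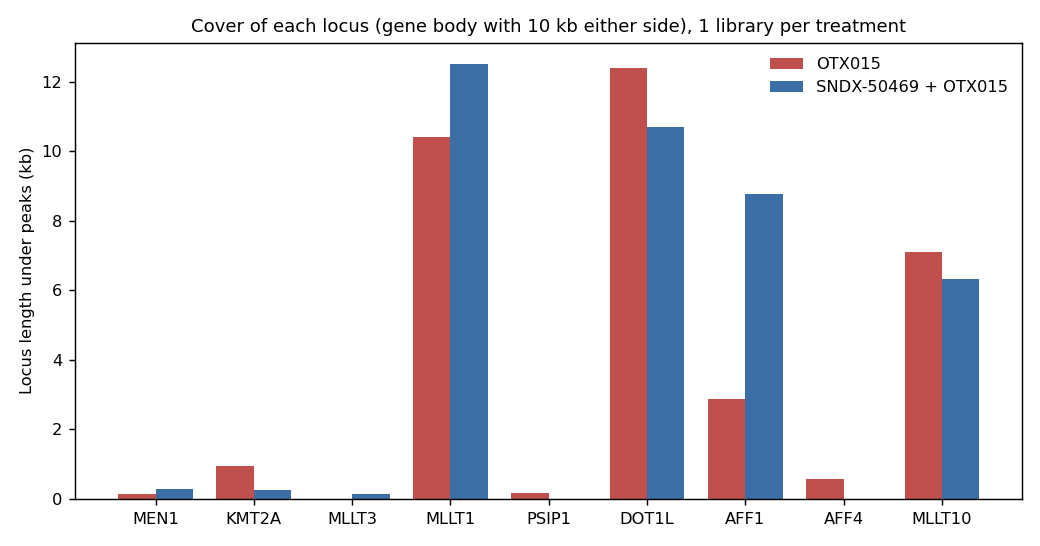
Length under peaks (kb) at each locus, gene record with 10 kb either side, for the OTX015 list (red) and the combination list (blue), 1 library each. AFF1 had 2.88 and 8.76 kb, MLLT1 10.4 and 12.5 kb, DOT1L 12.4 and 10.7 kb, and MLLT10 7.11 and 6.33 kb, whereas the other 5 loci stayed below 1 kb.

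A promoter, the 5′ end with 1 kb either side, carried a peak in 4 of 9 members with OTX015 and in 4 of 9 with the combination, where 14.9% and 15.3% of all protein-coding genes did. MLLT1, DOT1L and MLLT10 had one in both lists, PSIP1 only in the OTX015 list and AFF1 only in the combination list. At any RefSeq transcript start in the promoter table, AFF1 had a peak in both lists. MEN1, KMT2A, MLLT3 and AFF4 had none. MLLT1 and DOT1L lie on chromosome 19, where promoters with a peak were more common, at 24.7% and 30.3% of its genes.

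MEN1 (gene 4221, chr11:64803516-64811294, minus strand), which encodes the protein that SNDX-50469 binds, had 1 peak per list. The OTX015 peak of 148 bp lay at 88.0% of the record from the 5′ end, at 6.94 times background. The combination peak of 299 bp lay 10.2 kb from the 5′ end, in the 3′ flank and inside the neighbour MAP4K2, at 5.06 times background. The covered lengths of 0.148 and 0.299 kb gave a ratio of 2.02, which just passed the fold, and the gene body alone gave a difference of -0.148 kb. Neither peak lay near the start of the gene or met a peak of the other list, and the surrounding 10 Mb was covered more densely than the locus, 1.14% against 0.533% with OTX015 and 1.44% against 1.08% with the combination.

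KMT2A (gene 4297, chr11:118436492-118526832, plus strand), the MLL1 gene, had 4 peaks and 0.943 kb with OTX015 and 2 peaks and 0.260 kb with the combination. No OTX015 peak lay inside the gene record. One of 329 bp was centred in the 5′ flank, at a position of -8.49 kb from the 5′ end, and stood at 7.46 times background, and 3 of 147 to 281 bp lay in the 3′ flank, inside TTC36 and TMEM25. Of these neighbours, TMEM25 had a promoter peak in the OTX015 list only. Both combination peaks lay inside the record, 122 bp at 17.2% and 138 bp at 88.3% of it, at 5.07 and 5.25 times background. None of these peaks reached a −log10 q of 2. The highest was 1.67 with OTX015 and 1.66 with the combination, where the list medians were 1.27 and 1.54. The OTX015 peaks were all outside the gene and the combination peaks all inside it, and no peak was shared, but this rests on few and weak peaks. For the gene body alone the difference between lists therefore turned to 0.260 kb.

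The 5′ part of KMT2A, which the fusion retains, was set against its 3′ part by a split at the midpoint of the record, each with its own flank. The 5′ part had 0.329 kb under OTX015 and 0.122 kb under the combination, and the 3′ part had 0.614 and 0.138 kb. All of the OTX015 length lay in the flanks and all of the combination length inside the record. Without the flanks the 5′ part had 0 and 0.122 kb and the 3′ part 0 and 0.138 kb, the opposite direction. Splits at 33%, 60% and 75% of the record gave the same values, because no peak lay between 17.2% and 88.3%. The stretch from exon 8 to exon 14, in which KMT2A breaks in most leukemias, lay between 50.9% and 60.7% of the record in GENCODE v44 on GRCh37. It was free of peaks in both lists. The breakpoint of this line was not in the sources used here, and in a peak list the fused and the intact allele cannot be told apart.

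PSIP1 (gene 11168, chr9:15464066-15510970, minus strand), the LEDGF gene, had a single peak, in the OTX015 list. It spanned chr9:15511011-15511192, the capitals of the sequence above, with its middle at -0.132 kb from the 5′ end. With a mean of 10.0 times background, a fold of 4.91 and a −log10 q of 3.11, it was the second strongest of the 51 member peaks in its list. The combination list, which held peaks from 4.76 times background, had no peak anywhere at the locus. Of all OTX015 peaks, 33.3% met a peak of the combination list. That share is over mostly weaker peaks, with a median −log10 q of 1.27, whereas the PSIP1 peak lay at percentile 99.0 of enrichment. The share among peaks as strong was not computed, and the reason for the missing peak was not tested. The surroundings were sparse, with 0.0334% and 0.0224% of 10 Mb covered, so the call for PSIP1 rested on this 1 peak of 182 bp.

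MLLT3 (gene 4300, chr9:20341669-20622499, minus strand), which encodes AF9 and supplies the 3′ part of the fusion, had no peak with OTX015 and 1 with the combination. That peak of 140 bp lay at 97.0% of the record, in the 3′ part, and stood at 4.76 times background, the lowest enrichment called in its list, and was lost when both lists were held to the same number of peaks. The 5′ part with its flank had no peak in either list. The 1 Mb upstream of the gene had none either, while the 1 Mb beyond its 3′ end had 4 peaks in each list, with 0.867 and 1.20 kb. For KMT2A the corresponding lengths were 2.96 and 3.52 kb upstream and 3.61 and 8.44 kb downstream.

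MLLT1 (gene 4298, chr19:6210381-6279975, minus strand), which encodes the AF9 paralog ENL, had 13 peaks and 10.4 kb with OTX015 and 21 peaks and 12.5 kb with the combination, a ratio of 1.20. The first 25% of the record held 7.09 kb under OTX015 and 5.23 kb under the combination. The last 25% held 0.417 and 2.92 kb, so most of the added length with the combination lay on the 3′ side, while the start of the gene had less. The widest OTX015 peak, 3945 bp at 7.61 times background, was centred 6.44 kb into the gene. Overlapping it, the combination list had 2 peaks, of 851 and 1633 bp, the second at 6.26 times background, which was the strongest of its 64 member peaks. The lists shared 3.94 kb, and 8 peaks of each met one of the other.

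AFF1 (gene 4299, chr4:86935011-87141039, plus strand), which encodes the elongation complex scaffold AF4, showed a difference of 5.88 kb, the greatest of the 9 loci with all peaks and 10 kb flanks but exceeded by MLLT1 with peaks of a −log10 q of at least 2, by DOT1L with equal peak numbers, by DOT1L, MLLT1 and MLLT10 at a common enrichment, and by MLLT10 with 50 kb flanks. It had 8 peaks and 2.88 kb with OTX015 and 15 peaks and 8.76 kb with the combination, a ratio of 3.04, while its surrounding 10 Mb had 1.57 times the cover. The difference was concentrated in the stretch from 20 to 45 kb inside the gene, where 6 OTX015 peaks covered 2.49 kb and 8 combination peaks 6.37 kb. The first peak of this stretch was 1677 bp wide with OTX015 (chr4:86959707-86961383) and 2800 bp wide with the combination (chr4:86958956-86961755). It was wider with the combination, and stood at 9.44 times background with OTX015 and 5.56 times with the combination. These enrichments cannot be compared directly, since only 1.35% of all combination peaks reached the lowest enrichment of the OTX015 list. Within its own list the peak lay at percentile 98.3 of enrichment with OTX015 and 83.5 with the combination. In addition, 3 combination peaks of 248, 364 and 669 bp lay between the 5′ end and 20 kb, where the OTX015 list had none. The first of these touched the promoter window of AFF1 and held the 5′ end of C4orf36, which starts 1193 bp from AFF1 on the other strand, so it cannot be assigned to one of the genes. The direction at AFF1 depended on its weaker peaks, since the difference was -1.68 kb with peaks of a −log10 q of at least 2 and -2.88 kb at a common enrichment over background, while equal peak numbers left 3.59 kb.

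AFF4 (gene 27125, chr5:132875395-132963634, minus strand), the scaffold of the elongation complex recruited by HIV Tat and by MLL fusions, had 2 peaks with OTX015 and none with the combination. One of 451 bp at 6.54 times background, the lowest enrichment called in its list, lay at 39.1% of the record. The other, of 126 bp at 6.60 times, lay in the 3′ flank. Its paralog AFF1 thus held 15 peaks in the list in which AFF4 held none. The cover of the 10 Mb around AFF4 was 0.682% with OTX015 and 0.496% with the combination.

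DOT1L (gene 84444, chr19:2163933-2232578, plus strand), the H3K79 methyltransferase, had 19 peaks and 12.4 kb with OTX015 and 20 peaks and 10.7 kb with the combination, a ratio of 0.861. Its promoter peak was present in both lists, at chr19:2164157-2165575 with OTX015 and chr19:2163943-2165582 with the combination. At 10.5 times background it was the strongest OTX015 peak of all members, and it stood at 5.70 times background with the combination. It also held the 5′ end of AP3D1, 683 bp away on the other strand, so it cannot be assigned to DOT1L alone. The first 25% of the record was covered over nearly the same length, 4.85 and 4.95 kb, but only in part at the same positions. There the OTX015 peak at chr19:2173348-2174185 and the combination peak at chr19:2166693-2167509 met none of the other list. The next 25% differed, with 3.45 and 0.661 kb. Across the locus the lists shared 3.98 kb. Between 10 and 40 kb from the 5′ end, 8 OTX015 peaks covered 4.38 kb and 4 combination peaks 1.14 kb. The 3′ flank held the promoters of PLEKHJ1 and SF3A2, both with a peak in each list.

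MLLT10 (gene 8028, chr10:21533756-21743630, plus strand), which encodes the DOT1L cofactor AF10, had 3 peaks and 7.11 kb with OTX015 and 4 peaks and 6.33 kb with the combination, a ratio of 0.890. The widest peak of all members lay upstream of it and was nearly the same in both lists, 5517 bp at chr10:21523933-21529449 and 5753 bp at chr10:21523938-21529690, at 9.67 and 6.07 times background. It held the 5′ end of SKIDA1, which starts 8074 bp from MLLT10 on the other strand, so it cannot be assigned to MLLT10. The record of MLLT10 itself had 1.21 kb under OTX015 and 0.368 kb under the combination. Nearer to MLLT10, a peak of 392 bp with OTX015 and of 214 bp with the combination lay just upstream of the 5′ end and ended at the same base. A peak of 1205 bp centred 1.53 kb inside the gene, at 8.42 times background, was called with OTX015 only. The combination list instead had peaks of 121 and 247 bp in the middle of the gene, at 5.05 and 5.17 times background. Within 4 kb of the 5′ end the cover was 1.60 kb under OTX015 and 0.214 kb under the combination, a difference hidden in the locus total by the shared wide peak.

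Pooled over the 9 loci, the members' peaks had a median width of 417 bp with OTX015 and 376 bp with the combination. Over all peaks it was 303 and 339 bp. MLLT1 and DOT1L held 32 of the 51 and 41 of the 64 peaks. Their median widths were 522 and 549 bp with OTX015 and 492 and 426 bp with the combination. Of the other members, only MLLT10 exceeded the median of the whole list, at 1200 bp with OTX015. The greater width was thus not shared by most members. The median fold of the member peaks was 3.67 and 3.42, against 3.56 and 3.43, so in height they were close to the whole list. A −log10 q of at least 2 was reached by 10 of 51 OTX015 peaks, 5 of them at DOT1L, 2 each at AFF1 and MLLT10 and 1 at PSIP1. This was 19.6% of the member peaks, against 7.54% of all peaks in the list. It was reached by 6 of 64 combination peaks, 3 at DOT1L, 2 at MLLT1 and 1 at MLLT10, which was 9.38% against 12.9% of all peaks. The member share was thus above the whole list with OTX015 and below it with the combination. It rested on 10 and 6 peaks, none at MEN1, KMT2A, MLLT3 or AFF4, and the part of depth in it was not tested. Enrichment over background ran from 6.54 to 10.5 times with OTX015 and from 4.76 to 6.26 times with the combination. No member peak of the combination list thus reached the lowest enrichment of the OTX015 list, but only 1.35% of all its peaks did.

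**Figure D3:**
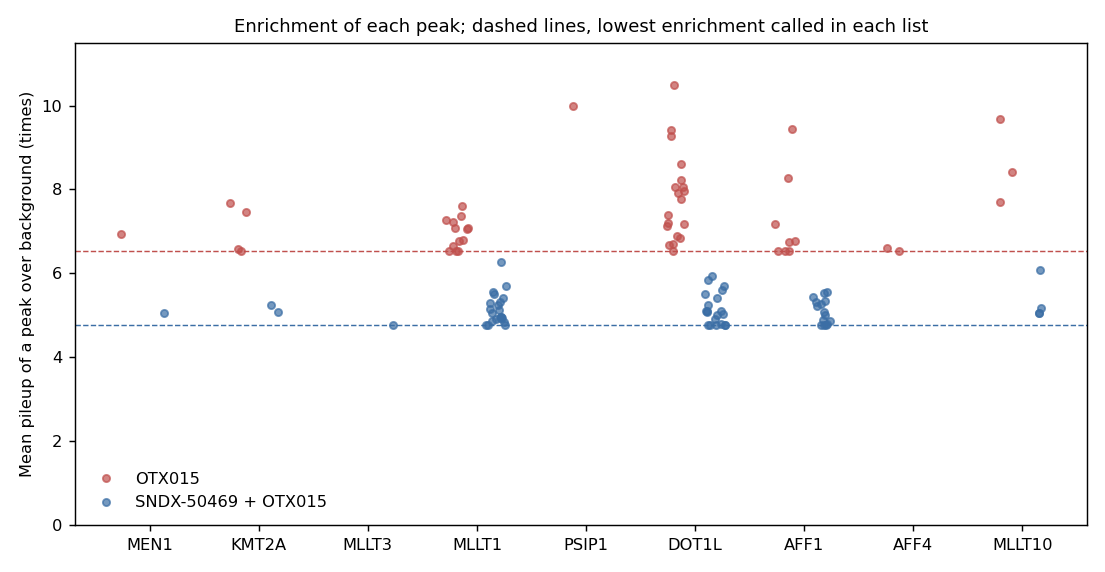
Mean pileup over background (times) of each member peak, in red for the OTX015 list and blue for the combination list, with the dashed lines at the lowest enrichment called in each list, 6.54 and 4.76 times. The ranges of the lists do not overlap at any member with peaks in both, but only 1.35% of all combination peaks reach the lowest OTX015 enrichment. The highest points are DOT1L at 10.5 and PSIP1 at 10.0 times with OTX015.

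Of the members' peaks, 22 of 51 OTX015 peaks (43.1%) met a peak of the combination list, and 24 of 64 combination peaks (37.5%) met one of the OTX015 list. Over all peaks the shares were 33.3% and 21.0%, and on chromosome 19 29.3% and 20.2%. All of these shared peaks were at MLLT1, DOT1L, AFF1 and MLLT10. Inside the gene records lay 38 OTX015 and 53 combination peaks, and 10 and 11 peaks overlapped another protein-coding gene.

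Cover of the surroundings differed widely among the members. In the 10 Mb around each locus it ran from 0.0311% (MLLT3) to 5.72% (DOT1L) with OTX015 and from 0.0208% (MLLT3) to 7.42% (DOT1L) with the combination, where the median over all genes was 0.538% and 0.535%. The window of DOT1L reached the chromosome end and was shorter. The locus was covered more densely than its surroundings at 6 of 9 members with OTX015 and at 5 of 9 with the combination, beside 30.5% and 34.1% of all genes, whose loci were shorter. MLLT1, DOT1L, AFF1 and MLLT10 were so in both lists, and PSIP1 and KMT2A with OTX015 only, and MLLT3 with the combination only. The 2 members on chromosome 19 held 22.8 and 23.2 kb of the covered length, in a region where peaks were dense in general, whereas AFF1 lay in surroundings below the median of all genes in both lists and MLLT10 in the combination list only.

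**Figure D4:**
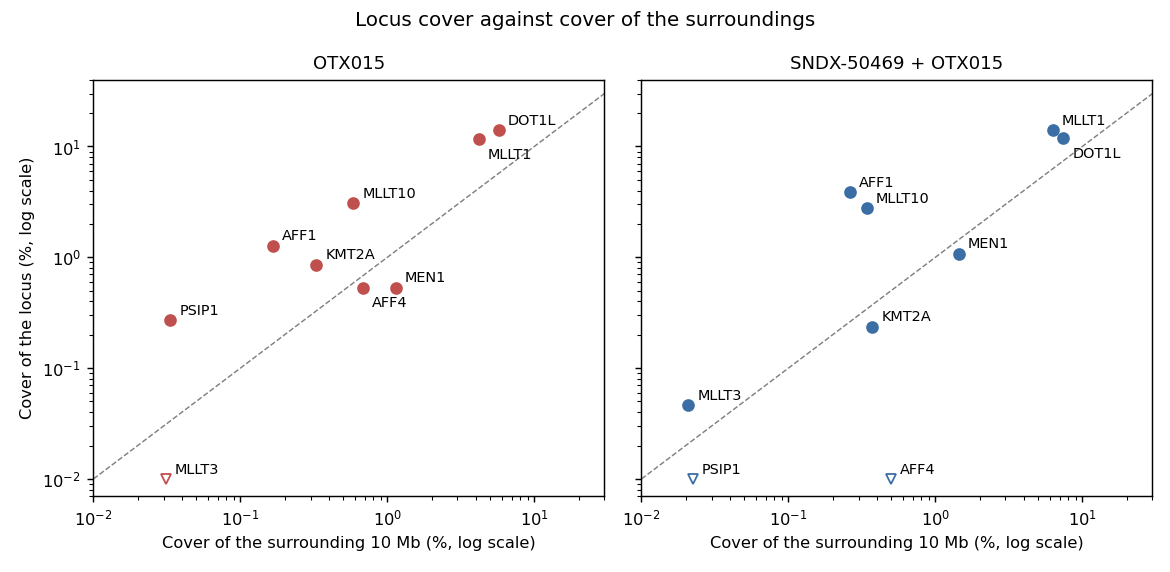
Share of each locus under peaks (%) against the share of the 10 Mb around it (%), both on log scales, for the OTX015 list (left) and the combination list (right), with the dashed line at equal shares. Open triangles at the foot are loci with no peak. AFF1, at 3.87% against 0.263%, lies farthest above the line with the combination, and MEN1 lies below it in both panels.

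The other genes of these complexes were counted in the same way. Of 34 genes, 27 had a peak at the locus in either list, 9 were covered less by at least 2-fold with the combination, 8 more and 10 neither, with 71.9 and 77.2 kb in all and a median difference of 0.107 kb over the 27. Over all loci with cover, 27.6% were covered less and 41.6% more, with a median difference of 0.134 kb. Promoter peaks were present at 9 of 34 genes in each list, beside 14.9% and 15.3% of all genes. Among 7 MLL1 and MLL2 complex subunits, 1 was covered less and 1 more. The latter was ASH2L, a core subunit, with 6.24 kb under OTX015 and 15.3 kb under the combination, and the next largest difference was at KMT2B, the MLL2 methyltransferase, with 2.85 and 4.62 kb.

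Among 9 further members of the super elongation complex, 3 were covered less and 0 more. ELL, an elongation factor and itself a fusion partner, had 9.23 kb under OTX015 and 15.0 kb under the combination, short of the 2-fold call. CDK9, the kinase of P-TEFb, had 2.67 and 0.724 kb, and CCNT1, its cyclin, had a promoter peak with the combination only, with 0.502 and 0.609 kb at the locus. Of 4 partners of DOT1L and AF10 or relatives of AF9 and ENL, 1 was covered less and 2 more. MLLT6, the AF10 paralog AF17, had 1.49 and 2.72 kb, CBX8, a Polycomb protein that binds AF9, had 0 and 0.614 kb, and YEATS4, a YEATS domain protein, had its only peak, 0.224 kb at the promoter, with OTX015.

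Among 6 PAF1 complex genes, 1 was covered less and 2 more. RTF1 had 3.84 kb under OTX015 and none under the combination, and PAF1 had 4.94 and 6.63 kb with a promoter peak with the combination only. Of 8 other recurrent MLL fusion partners, 3 were covered less and 3 more. SEPTIN9, a cytoskeletal septin, had more cover than any member, 28.6 and 20.7 kb, AFDN (AF6) had 0.417 and 1.44 kb, and ABI1 had a single peak of 0.254 kb, at its promoter, with OTX015. Each list but that of the super elongation complex thus had genes on both sides of the fold. With 1 library per treatment none of these counts was tested.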

How the data were processed

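H3K27ac ChIP was followed by Tn5 tagmentation and sequencing of 1 library per treatment. Per the submitters' processing notes, bcl2fastq 2.17, Trimmomatic 0.33, Bowtie 1.1.2 on GRCh38, MACS2 2.1.0 and deepTools were used, whereas the study's methods name another aligner. H2K27Ac in the titles was read as H3K27Ac, the name in the antibody label. The authors deposited 1 broad peak list per library, in which each peak has a score, a fold enrichment (a ratio of pileup to background) and its p and q as −log10. The deposited fold and −log10 values are the peak caller's means over a peak, and the score repeats the −log10 q. The 2 input libraries had no values used here.

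Covered length was the union of peaks in a region, and peaks met when they shared at least 1 bp. Enrichment was recomputed without the pseudocount of 1, over a constant Poisson background solved from each list's lowest peaks (pileups of 5 and 7). Depth is thus inferred, and the precision of a covered length is unknown. Gene records came from RefSeq on GRCh38.p14, with strands from the RefSeq promoter table for 15843 genes and from GENCODE v44 by symbol and chromosome for 3832, which left 19675 of 20037. No coordinate was converted. Promoter sequences were found for 8 of 9 members. Cover and background scripts were tested on simulated data. The members and gene lists were chosen with earlier results of these data known. All members were named, with the 2 genes of the largest absolute difference per complex list, those with a promoter peak in 1 list only, and neighbours whose 5′ end lies in a member locus. Neighbours with no promoter peak in either list were MAP4K2, TTC36, GDF9, UQCRQ and LEAP2. Alternatives were a −log10 q of at least 2, equal peak numbers, a common enrichment, other flanks, promoter widths, folds and splits, and merged peaks. Python 3.11.15, numpy 2.4.6, pandas 2.3.3 and scipy 1.17.1 were used. Some marker genes are not reported here.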

Additional observations from a re-analysis of the deposited data

How the results depend on the processing

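With 1 library per treatment no library could be left out, and the depth of the lists, inferred as 1.92 times higher with the combination, limits every comparison. No paired analysis was possible because each treatment has 1 library and no test was run. Of 132 recomputed values, 89 kept their direction and stayed within 1.5 times the value reported. Another 38 moved further, and 5 that had passed the fold turned sign. Some of the 89 could not change, such as the OTX015 total with equal peak numbers, for which the OTX015 list stayed as it was. Of 54 recomputed differences at single members, 29 stayed, 20 moved further and 5 turned sign. The 38 include changes of sign at MLLT1 and DOT1L, which had not passed the fold. Among them is MLLT1 at -10.4 kb at a common enrichment. With peaks of a −log10 q of at least 2, 1 member was covered more, total cover was 12.0 kb under OTX015 and 10.1 kb under the combination, 1 promoter had a combination peak, both parts of KMT2A had 0 kb in both lists, the 3′ part of MLLT3 had 0 kb, and the difference at AFF1 turned to -1.68 kb. At a common enrichment over background, which leaves no combination peak at any member, 8 members were covered less and 0 more, the combination total was 0 kb with 0 promoters and 0 kb at both parts of KMT2A and the 3′ part of MLLT3, and the differences turned at AFF1 to -2.88 kb and at MEN1 to -0.148 kb. By the same setting 97.4% of all loci with cover were covered less. With equal peak numbers the 3′ part of MLLT3 had 0 kb and MLLT1, uncalled, had a difference of -1.94 kb, DOT1L -3.97 kb and AFF1 3.59 kb, with a combination total of 30.3 kb. With the gene body alone MEN1 turned to -0.148 kb and KMT2A to 0.260 kb. With 50 kb flanks the totals were 59.1 and 55.9 kb, MLLT10 was at -10.5 kb and DOT1L, uncalled, at 0.187 kb, and with peaks within 1 kb merged DOT1L was at 1.03 kb. Promoter counts at any RefSeq transcript start were an alternative chosen after seeing the data and were 5 with OTX015, AFF1 added, and 4 with the combination.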
